A study of Mus musculus with 6 samples.

Results

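Platelet-derived growth factors (PDGF), their receptors and the related receptor tyrosine kinases of class III were examined in the RNAseq of immortalized mouse fibroblasts (MF). The genes were taken by symbol. They are the PDGF chains *Pdgfa*, *Pdgfb*, *Pdgfc* and *Pdgfd*, the receptors *Pdgfra*, *Pdgfrb*, *Kit* and *Csf1r*, and the ligands *Kitl* and *Flt3l*. Of these 10 symbols, 8 had a row among the 19078 genes of the deposited table. *Kit* and *Pdgfd* had no row and were not analysed here. RNA was sequenced from 3 libraries of *Ms4a15* OE cells and 3 of control cells. *Ms4a15* OE is a pool of cells in which a CRISPR activation system with a guide raises *Ms4a15* from its own locus. Control cells are labelled wild type, and the study describes them as carrying an empty vector. Both groups derive from male embryonic fibroblasts with a conditional *Gpx4* allele and Cre-ERt2, and were grown without any treatment stated in the labels.

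Each gene has a single usable value, the authors' mean of the normalized counts of all 6 libraries. Normalized counts are reads divided by the size factor, which corrects a library for its depth. This mean joins both groups, so no difference between *Ms4a15* OE and control is reported, and no value has a test or an SD. It does set a limit. With 3 libraries in each group, neither group's mean can exceed 2 times the overall mean. The size factors ran from 0.887 to 1.14. A floor of 3 counts per library corresponds to a mean of 3.01 normalized counts. *Ms4a15* itself had a mean of 638 normalized counts over both groups together, which does not check the labels.

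PDGF chains pair into dimers that draw receptor chains together at the cell surface, and the paired receptors then phosphorylate each other on tyrosines. These tyrosines recruit phosphatidylinositol 3-kinase, phospholipase C gamma, Src kinases and adaptors. PDGF drives the growth and migration of fibroblasts and other mesenchymal cells. The same receptor class includes KIT, the receptor for stem cell factor, CSF1R, which macrophages require, and FLT3, which acts in early blood cells and dendritic cells.

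The PDGF system was present as the 2 chains *Pdgfc* and *Pdgfa* with both receptors. Per kilobase of coding sequence, *Pdgfc* was the highest of the 8 genes and *Pdgfrb* the highest of the measured receptors. *Pdgfb* and *Kitl*, which encodes stem cell factor, were under the floor, with a few reads in each library. *Csf1r* was low but above the floor. In all, 6 of the 8 genes (75.0%) were above the floor, compared with 75.8% of all genes in the table.

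Among the ligands, *Pdgfc* encodes a chain that is secreted in latent form with a CUB domain. Its mean was 3321 normalized counts, above 84.4% of all genes, or 3208 per kilobase of its 1035 coding bases. *Pdgfa*, the chain that signals mainly through PDGFRα, had a mean of 1244 normalized counts, above 68.2% of all genes, or 1966 per kilobase. Per kilobase of coding sequence the level of *Pdgfc* was thus 1.63 times that of *Pdgfa*, and per kilobase of merged exons 2.23 times. Counting error alone was at most 0.752% for *Pdgfc* and 1.23% for *Pdgfa*, while the spread between libraries is not known for either. *Flt3l*, the ligand of FLT3, had a mean of 136 normalized counts, above 46.8% of all genes, or 164 per kilobase of coding sequence. On the same strand it overlaps the gene model *Gm45713*, so part of its reads may have been assigned differently.

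Among the receptors, *Pdgfrb* had a mean of 2150 normalized counts, above 77.1% of all genes, and *Pdgfra* one of 278, above 51.1%. Their coding sequences are of nearly equal length, 3309 and 3267 bases. Per kilobase of coding sequence, *Pdgfrb* lay above only 56.8% of the genes with a coding length, and *Pdgfra* above 36.6%. The level of *Pdgfrb* was 7.65 times that of *Pdgfra* per kilobase of coding sequence and 12.4 times per kilobase of merged exons. At these means, neither group of libraries could average more than 4301 normalized counts of *Pdgfrb* or 555 of *Pdgfra*. *Csf1r* had a mean of 13.2 normalized counts, so that neither group could exceed 26.5. The order of the 8 genes per kilobase of coding sequence was *Pdgfc*, *Pdgfa*, *Pdgfrb*, *Flt3l*, *Pdgfra*, *Csf1r*, *Pdgfb* and *Kitl*. *Pdgfa* and *Pdgfrb* are the neighbours most sensitive to the length used, at 3.03-fold apart per kilobase of coding sequence and 1.08-fold per kilobase of merged exons. *Pdgfb* and *Kitl* did not differ beyond their counting error. The reads of single libraries follow for these genes and, as 2 possible sets, for *Csf1r*, and for the other genes the spread between libraries is not known.

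**Figure D1:**
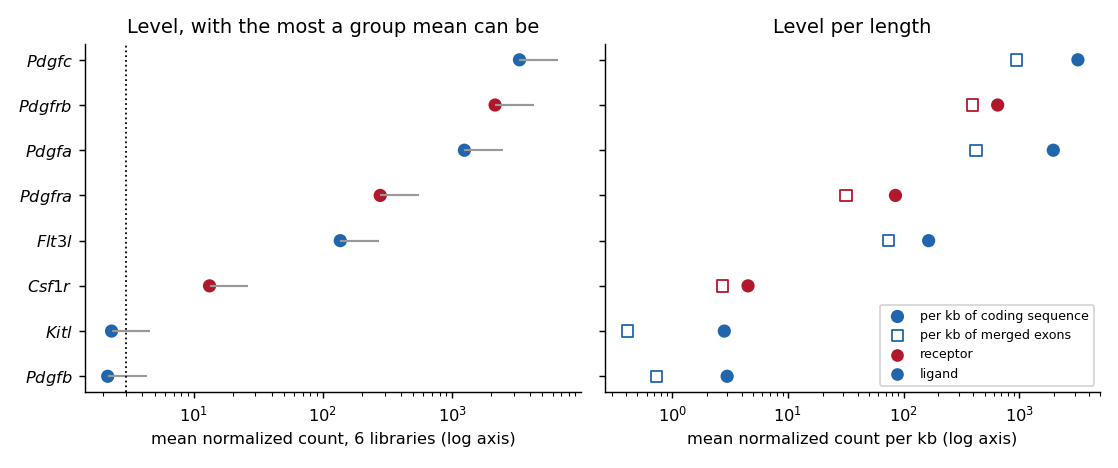
Levels of the 8 genes with a row, receptors in red and ligands in blue. On the left, points are the authors' mean normalized counts over 6 libraries on a log axis, grey lines reach to the most that the mean of either group can be, and the dotted line is the floor of 3.01. On the right, the same means are given per kilobase of coding sequence (filled circles) and of merged exons (open squares). *Pdgfc* is highest on each scale, and *Pdgfb* and *Kitl* lie left of the floor.

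The 250 bases before the RefSeq start site are shown for the highest ligand, *Pdgfc*, for the receptor *Pdgfra* and for a ligand under the floor, *Kitl*, as examples that span the range of levels. They were chosen after their values were seen. The sequences are from RefSeq on GRCm38.p6 and read 5′ to 3′ on the forward strand, with each CpG dinucleotide in capitals. *Pdgfc* is chr3:81036166-81036415, *Pdgfra* is chr5:75152001-75152250 and *Kitl* is chr10:100015571-100015820.
Pdgfc: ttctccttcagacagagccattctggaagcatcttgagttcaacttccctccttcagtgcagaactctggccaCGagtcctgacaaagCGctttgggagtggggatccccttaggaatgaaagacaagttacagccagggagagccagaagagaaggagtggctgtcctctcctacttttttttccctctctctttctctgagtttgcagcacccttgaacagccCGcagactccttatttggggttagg
Pdgfra: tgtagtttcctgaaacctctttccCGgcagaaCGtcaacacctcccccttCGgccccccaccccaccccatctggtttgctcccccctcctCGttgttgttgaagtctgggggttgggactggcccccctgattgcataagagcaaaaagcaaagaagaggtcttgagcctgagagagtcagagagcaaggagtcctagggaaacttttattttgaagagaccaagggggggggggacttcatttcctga
Kitl: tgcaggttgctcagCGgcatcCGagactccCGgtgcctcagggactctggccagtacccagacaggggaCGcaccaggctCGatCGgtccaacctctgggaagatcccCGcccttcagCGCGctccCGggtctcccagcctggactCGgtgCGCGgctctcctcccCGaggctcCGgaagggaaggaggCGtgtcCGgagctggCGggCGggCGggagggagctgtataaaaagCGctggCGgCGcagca
The *Pdgfc* window held 3 CpG, more than 29.0% of the 32851 promoter windows of that length, and the *Pdgfra* window held 4, more than 37.8%. The *Kitl* window held 23, more than 86.7%. It also held the motif TATAAA, which was searched on both strands and occurs in 12.4% of all windows. Among the 11206 genes of the table with such a window, 50.2% of the 1898 with at most 4 CpG were above the floor, and 91.7% of the 3803 with at least 20 CpG. The median level was 2.66 normalized counts per kilobase of coding sequence over the 1824 of the former with a coding length, and 1015 over 3715 of the latter. *Pdgfc* and *Pdgfra* lay above the median of the CpG-poor genes, and *Kitl* under the floor that most CpG-rich genes passed. *Pdgfa*, with 19 and 28 CpG in the windows of its 2 start sites, was at 1966 per kilobase, above the median of the CpG-rich genes, and *Flt3l*, with 11 CpG, was at 164. A window shows only the bases before the start site given by RefSeq. Most of the *Kitl* window and both *Pdgfa* windows lie inside the genes as annotated by GENCODE, whose positions are given below. No window was available for *Pdgfrb*, *Csf1r* or *Pdgfb*, so the highest of the measured receptors is not part of this comparison.

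The genes lie in the mouse genome (GRCm38) as follows. *Pdgfc* is on the forward strand of chromosome 3 from 81036416 to 81214040, and *Pdgfa* on the reverse strand of chromosome 5 from 138976014 to 138997370. *Pdgfra* is on the forward strand of chromosome 5 from 75152292 to 75198215, with *Kit* 376.7 kb downstream. *Pdgfrb* and *Csf1r* are neighbours in the same orientation on chromosome 18, from 61045150 to 61085061 and from 61100598 to 61132149, and 15.5 kb separate them. Despite this proximity, the level of *Pdgfrb* was 144 times that of *Csf1r* per kilobase of coding sequence, a ratio that rests on the low mean of *Csf1r*. *Kitl* is on chromosome 10 from 100015630 to 100100416, *Pdgfb* on chromosome 15 from 79995874 to 80014977 and *Flt3l* on chromosome 7 from 45129788 to 45136432. Gene models on the opposite strand overlap *Pdgfa*, *Pdgfb*, *Pdgfc*, *Pdgfra* and *Csf1r*. For *Csf1r* the model is a protein-coding gene that overlaps its 3′ end from position 61131277. Whether this affected the few reads of *Csf1r* was not tested. The libraries were strand-specific, but the strand setting of the read counting is not given in the sources used here.

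For genes with few reads, the mean alone gives the reads of each library, because only 1 set of whole reads divided by the 6 size factors adds up to it. This held for each of the 2477 different means under 5 in the table. The table does not say which library belongs to which group, so the libraries are given here in order of rising size factor, without a group. *Pdgfb*, whose chain forms the homodimer PDGF-BB, had 1, 2, 3, 3, 2 and 2 reads, 13 in all, for a mean of 2.16 normalized counts (95% exact Poisson interval of counting error 1.15 to 3.69). *Kitl* had 3, 1, 2, 2, 2 and 4 reads, 14 in all, for a mean of 2.31 (95% exact Poisson interval of counting error 1.26 to 3.87). Each gene was found in all 6 libraries, and none held more than 3 reads of *Pdgfb* or 4 of *Kitl*. The groups were not compared, and with so few reads only a large difference would be detectable at this depth.

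The mean of *Csf1r* admits 2 sets of whole reads, which cannot be told apart. The first is 15, 9, 8, 30, 6 and 11 reads, 79 in all, and the second is 19, 5, 32, 3, 4 and 14 reads, 77 in all. In either set a single library held far more reads than the rest, 30 against at most 15 in the first and 32 against at most 19 in the second, although it is not the same library in both. At most 1 of these sets can be right, and recovery at a mean this high was not tried in simulated data. Whether the mean of *Csf1r* rests to a large part on 1 library is therefore not known, and neither is that library's group.

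**Figure D2:**
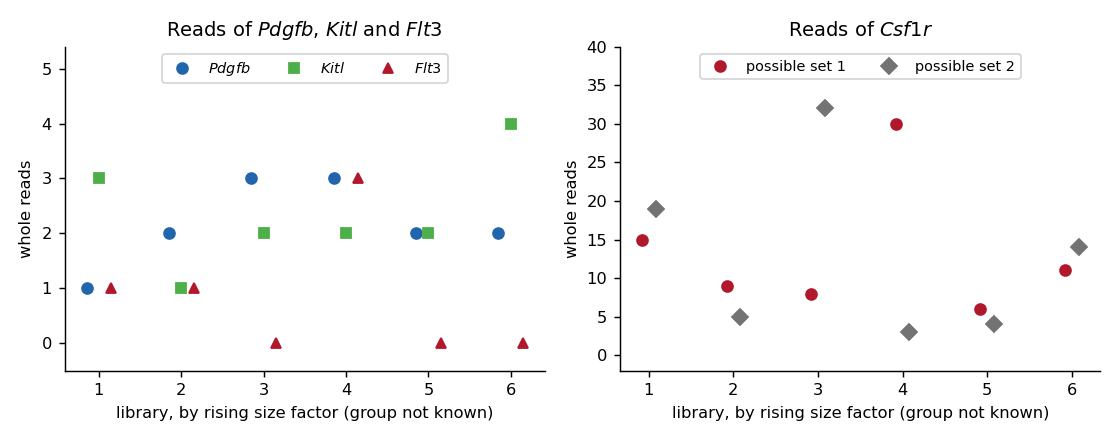
Whole reads per library recovered from the deposited means, with libraries on the horizontal axis by rising size factor and without a group. *Pdgfb*, *Kitl* and *Flt3* (left) have between 0 and 4 reads in each library, and the 2 sets possible for *Csf1r* (right, circles and diamonds) each have a single high library at 30 or 32 reads.

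Receptor and ligand levels were then set side by side. *Csf1*, the classical ligand of CSF1R, had 27791 normalized counts, or 16782 per kilobase of coding sequence, which is 3715 times the level of its receptor on that scale and 2172 times per kilobase of merged exons. *Il34*, the other ligand of CSF1R, had 587 normalized counts, or 832 per kilobase. *Flt3* had 5 reads in all, in 3 of the 6 libraries, and at a mean of 0.855 was under the floor, whereas its ligand *Flt3l* was above it. For CSF1R the ligand transcripts were therefore high or moderate and the receptor transcript low. For FLT3 the receptor transcript was under the floor. Its ligand *Flt3l* was above the floor but, at 164 per kilobase of coding sequence, under the median of 408 over the genes with a coding length. For PDGF the ligands *Pdgfa* and *Pdgfc* and both receptors were above the floor, and *Pdgfb* was not.

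Among 54 receptor tyrosine kinases, 43 had a row and 26 were above the floor (60.5%, compared with 75.8% of all genes). *Axl* was the highest at 10556 per kilobase of coding sequence, followed by *Ddr2*, a collagen receptor, at 5484. *Pdgfrb*, at 650 per kilobase, had rank 10 of the 43, just under the insulin-like growth factor receptor *Igf1r* at 699. *Pdgfra* had rank 16 at 84.9 per kilobase, after *Fgfr2* at 240. *Csf1r* had rank 23 at 4.52 per kilobase, between *Egfr* at 5.49 and *Erbb3* at 3.82. *Flt3* had rank 36. Of the receptors of the related VEGF class, *Flt1* had rank 18 at 36.8 per kilobase and was above the floor, *Kdr* stood at 0.337 and was under it, and *Flt4* had no row.

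**Figure D3:**
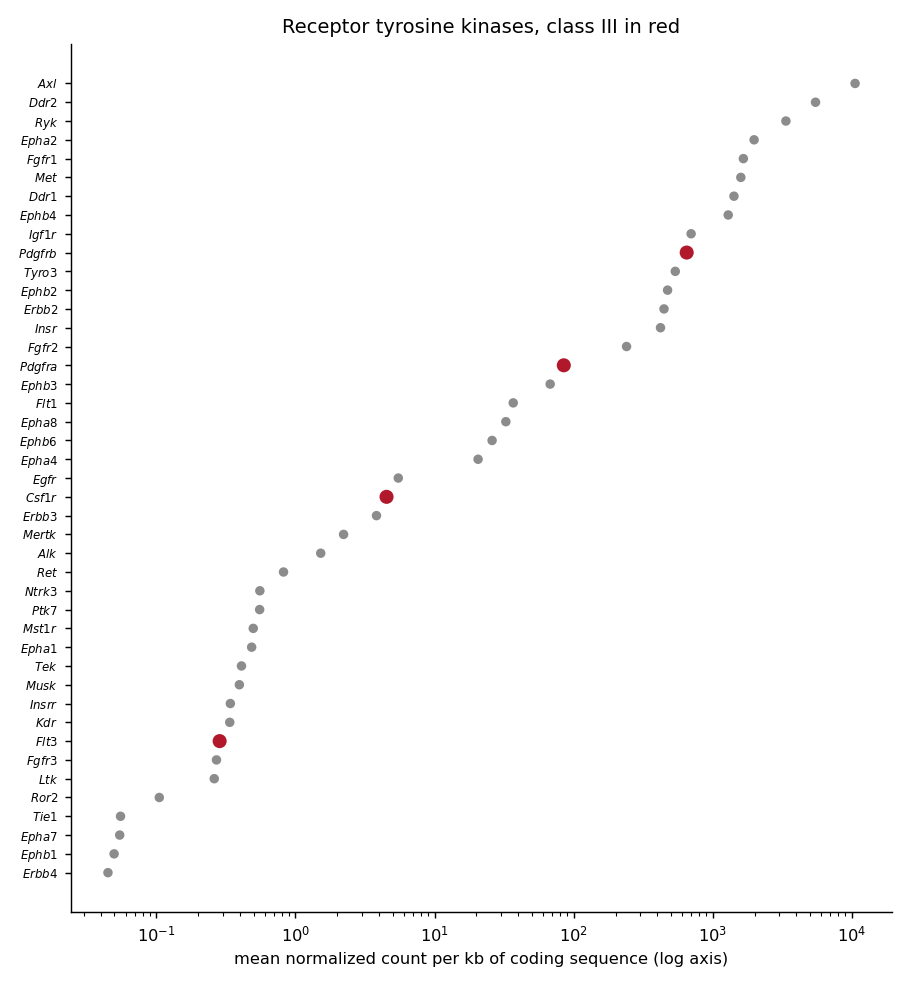
The 43 receptor tyrosine kinases with a row, ordered by mean normalized count per kilobase of coding sequence (log axis), with class III receptors in red. *Pdgfrb* lies at 650, *Pdgfra* at 84.9, *Csf1r* at 4.52 and *Flt3* at 0.285.

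Of 10 genes listed for processing and binding PDGF, 9 had a row and 8 were above the floor (88.9%, compared with 75.8% of all genes). *St14* passed it at a mean of only 5.01 normalized counts. Nothing particular to PDGF is read from this share. *Furin*, a protease that cleaves the PDGF-A and PDGF-B precursors, had 1598 normalized counts per kilobase of coding sequence, while the related *Pcsk6* had 3 reads in all. *Plat*, the tissue plasminogen activator that releases active PDGF-CC, stood at 316 per kilobase. *Plau*, the urokinase that can activate PDGF-DD, stood at 703. *Sparc*, a matrix protein that binds PDGF, reached 46337 per kilobase, and *Lrp1*, an endocytic receptor that associates with PDGFRβ, 1497.

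All 24 genes listed for signalling next to the receptors were above the floor, compared with 75.8% of all genes. Their median was 1017 normalized counts per kilobase of coding sequence, against 408 over the 14038 genes of the table with a coding length. They ranged from *Stat5a* at 81.4 to the adaptor *Crk* at 10942, and *Grb2*, the adaptor that leads to Ras, stood at 7152. The 16 listed negative regulators were likewise all above the floor, with a median of 819 per kilobase. Most cells express these genes, and nothing particular to PDGF is read from their levels.

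**Figure D4:**
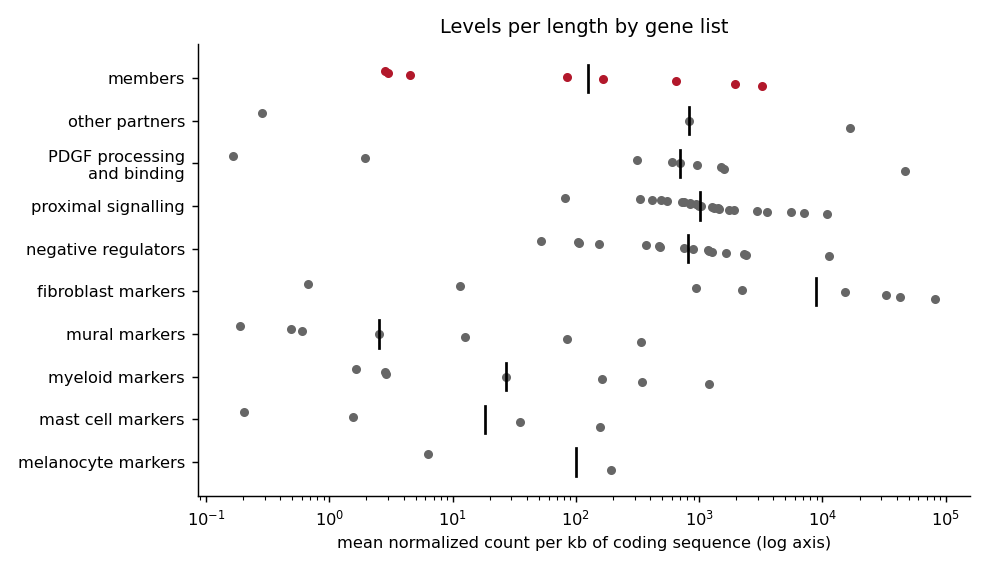
Mean normalized count per kilobase of coding sequence (log axis) of each gene with a row, by list, with the list median as a black bar and the PDGF and class III genes in red. The medians are 125 for the 8 PDGF and class III genes, 1017 for proximal signalling, 819 for negative regulators and 8806 for fibroblast markers.

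Marker genes were examined because class III receptors also mark other cells. The counts above the floor below stand against 75.8% of all genes. Of 9 fibroblast markers, 8 had a row and 7 were above the floor, with *Col1a2* at 32836 and *Vim* at 82357 normalized counts per kilobase of coding sequence, whereas *Dcn* stood at 11.4, *Lum* had 4 reads in all and *Fap* had no row. For the myeloid list, 7 of 9 had a row and 6 were above the floor (85.7%, compared with 87.5% of the fibroblast markers). The summed mean was 1098 normalized counts against 335336 for fibroblast markers. These sums are over different genes and do not give a share of cells. *Lyz2* reached 1202 and *Cd14* 341 normalized counts per kilobase of coding sequence, whereas *Ptprc*, which encodes CD45, stood at 2.87, and *Spi1*, a myeloid transcription factor, had 13 reads in all. *Adgre1* and *Tyrobp* had no row. The part of myeloid cells in the reads of *Csf1r* was not tested. Of 8 mast cell markers, 4 had a row and 2 were above the floor, *Gata2* at 156 and *Hdc* at 35.2 per kilobase, while *Cpa3*, *Tpsb2*, *Fcer1a* and *Ms4a2* had no row. Of 7 melanocyte markers, 2 had a row and both were above the floor, *Mitf* at 192 and *Pmel* at 6.37 per kilobase. The others, *Dct*, *Tyr*, *Tyrp1*, *Sox10* and *Mlana*, had no row. Of 8 mural cell markers, 7 had a row and 4 were above the floor, *Acta2*, *Des*, *Notch3* and *Cspg4*, while *Rgs5* had 2 reads in all.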

How the data were processed

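Poly(A)-selected, strand-specific RNA libraries of 3 *Ms4a15* OE and 3 control samples were sequenced by the authors. The authors aligned the reads to mm10 with STAR, counted them with HTSeq-count on UCSC knownGene and used DESeq2 to compare the groups. The submitters' processing notes name TopHat, Cufflinks and Cuffdiff as well. The deposited table gives for each gene a signal averaged by the authors across the 6 libraries, after division of each count by the library's size factor. The 5 other columns hold the authors' own comparison (log2 fold changes, standard errors, p-values, adjusted p-values and direction) and were not used, so the planned tests between groups were not run. The genes and lists were chosen with earlier results of these data known.

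The smallest means in the table, which come from lone reads, gave the 6 size factors. Reads per library were recovered as whole reads that add up to the mean within its printed digits, for means under 5 and for *Csf1r*. In simulated data, 300 genes with means under 5 were tried and all 300 were recovered. Recovery at a mean as high as that of *Csf1r* was not tried. Lengths, positions and overlaps came from GENCODE M21 on GRCm38, using the longest coding sequence, or all exons merged. *Spi1* is listed as *Sfpi1*. The text names the 10 genes chosen and members of lists fixed with them: partners of the receptors, PDGF processing and binding, proximal signalling, negative regulators, receptor tyrosine kinases and markers of 7 cell types. Of 6 endothelial and 6 epithelial markers, 3 and 1 were above the floor, compared with 75.8% of all genes. Intervals and floors cover counting error only. Python 3.11.15, numpy 2.4.6, pandas 2.3.3, scipy 1.17.1 and matplotlib 3.10.9 were used.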

Additional observations from a re-analysis of the deposited data

How the results depend on the processing

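No paired analysis was possible because the values used join all 6 libraries. For the same reason another normalization, a filter on single libraries, a pseudocount and leaving out replicates were planned and not run. Raising the floor to 10 counts per library left 6 genes above it, as with 3. Both floors apply to the mean, and *Csf1r*, at 13.2, was not far above the raised one. In either possible set of its reads, some libraries held fewer than 10. Ordered by mean normalized count without regard to length, *Pdgfrb* is at place 2, *Pdgfa* 3, *Pdgfra* 4, *Flt3l* 5, *Kitl* 7 and *Pdgfb* 8. Per kilobase of coding sequence or of merged exons, the latter chosen after seeing the data, these became 3 for *Pdgfrb*, 2 for *Pdgfa*, 5 for *Pdgfra*, 4 for *Flt3l*, 8 for *Kitl* and 7 for *Pdgfb*. *Pdgfc* (1) and *Csf1r* (6) held their places on each scale. Division by length is what moves the others. Among receptor tyrosine kinases, *Csf1r* went from rank 24 by mean to 23 per kilobase of coding sequence and 22 per kilobase of merged exons, on which *Pdgfra* had rank 17 in place of 16 and *Pdgfrb* 9 in place of 10. When genes averaging under 10 normalized counts were set aside, the share of genes below was 76.9% for *Pdgfc*, 66.1% for *Pdgfrb*, 53.0% for *Pdgfa*, 27.7% for *Pdgfra*, 21.5% for *Flt3l* and 2.81% for *Csf1r*, because low genes leave the denominator. Depth limits what can be said of *Pdgfb* and *Kitl*, at 13 and 14 reads in all.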
